A study of Homo sapiens with 4 samples.

Results

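The IFIT family (interferon-induced proteins with tetratricopeptide repeats) was followed across 4 RNA sequencing libraries of BEAS-2B, a human bronchial epithelial line kept in culture by immortalisation. Members were the rows whose gene symbol was IFIT1, IFIT2, IFIT3 or IFIT5, and all 4 were found among the 24424 gene symbols counted. One library came from cells given occludin siRNA for 24 h and then LPS for 2 h (siOCLN+LPS). Another came from cells that the label describes as transfected with wild-type occludin for 24 h and then given LPS for 2 h (labelled wtOCLN+LPS). The third came from cells given LPS for 2 h, and the fourth from untreated control cells. LPS is bacterial lipopolysaccharide, a ligand of the receptor TLR4, and occludin, encoded by OCLN, is a membrane protein of tight junctions. All 4 groups carry the genotype label wild type, and no transfection or mock transfection is mentioned for the LPS and control cells. With 1 library per group there were no replicates, so every ratio compares libraries and no p-value was computed. The members were selected on their gene symbols with their counts in all 4 libraries already known, so their levels are given as a description.

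IFIT proteins are cytoplasmic RNA-binding proteins built from helical repeats, and their genes are among those most strongly induced by type I and type III interferon in epithelial cells. IFIT1 binds RNA whose cap lacks ribose methylation and blocks its translation, and IFIT3 binds and stabilises IFIT1. IFIT2 forms part of the same complexes and has been tied to apoptosis, while IFIT5 acts alone and binds RNA with a free triphosphate end. Transcription of the family is driven by factors that interferon receptors activate, STAT2 and IRF9 among them, and also directly by IRF3, through the interferon-stimulated response element (ISRE) in the promoter.

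The promoters of the family show that element, and they are printed here because the members are compared below with other genes that carry it. RefSeq promoter windows, reaching from 250 bases before to 50 bases after the annotated start on build GRCh38.p14, were at hand for 3 of the 4 members, with 2 start sites for IFIT3. The entry for IFIT2 is named only. Capitals mark matches to the ISRE core, which was searched on both strands as GAAA, any 2 bases and GAAA again, and reads TTTC, 2 bases and TTTC on the strand shown. Each line gives the plus strand of chromosome 10, which is the strand of the gene, down to 30 bases after the start. The windows are chr10:89392373-89392652 for IFIT1, chr10:89327747-89328026 for the first IFIT3 start, chr10:89414318-89414597 for IFIT5 and chr10:89377806-89378085 for IFIT1B. IFIT1B, a neighbouring paralog that is no member, is shown because it was at 0 counts in 3 libraries and at 1 count in siOCLN+LPS.
IFIT1: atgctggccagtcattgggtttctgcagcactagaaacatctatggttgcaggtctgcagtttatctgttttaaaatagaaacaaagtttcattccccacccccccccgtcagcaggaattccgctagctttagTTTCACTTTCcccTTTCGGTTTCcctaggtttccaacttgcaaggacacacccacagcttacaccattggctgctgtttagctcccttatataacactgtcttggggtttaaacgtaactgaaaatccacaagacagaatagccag
IFIT3: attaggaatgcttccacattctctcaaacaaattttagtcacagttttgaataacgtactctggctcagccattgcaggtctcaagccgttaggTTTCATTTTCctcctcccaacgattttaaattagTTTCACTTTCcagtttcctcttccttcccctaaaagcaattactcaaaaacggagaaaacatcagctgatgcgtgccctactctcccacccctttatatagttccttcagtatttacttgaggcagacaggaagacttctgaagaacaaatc
IFIT5: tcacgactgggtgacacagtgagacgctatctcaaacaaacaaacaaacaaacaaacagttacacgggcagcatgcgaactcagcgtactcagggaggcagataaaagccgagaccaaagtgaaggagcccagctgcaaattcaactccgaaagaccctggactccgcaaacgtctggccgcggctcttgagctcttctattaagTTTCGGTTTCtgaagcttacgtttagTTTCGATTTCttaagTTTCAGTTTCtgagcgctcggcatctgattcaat
IFIT1B: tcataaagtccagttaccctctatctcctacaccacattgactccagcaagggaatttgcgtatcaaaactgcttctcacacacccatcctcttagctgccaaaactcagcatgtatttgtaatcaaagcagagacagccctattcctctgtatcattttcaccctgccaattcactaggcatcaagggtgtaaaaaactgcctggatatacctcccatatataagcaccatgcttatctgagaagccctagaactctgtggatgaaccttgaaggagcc

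The IFIT1 window held 2 ISRE cores, from -116 to -107 and from -103 to -94 relative to the start. Each IFIT3 window also held 2, at -156 and -122 before the first start and at -94 and -51 before the second. IFIT5 held 3, at -45, -19 and -4, the last of which ran across the start. The IFIT1B window held none. Among all 35116 windows of this length, 3.57% held at least 1 ISRE core, 0.259% at least 2 and 0.0370% at least 3. The same windows were searched for TTCNNNGAA, the core of the gamma-activated sequence (GAS) and its own reverse complement, and for an NF-kB core, GGGA, any base, TT, any base and CC, on both strands. Neither had a match in a family window. Only 7.66% and 1.40% of all windows held one, so the absence from so few windows is not read as a trait of the family. TATAAA or its reverse complement was matched once, 30 bases before the first IFIT3 start, and in 11.5% of all windows. The motifs searched did not overlap each other in these windows. A match describes letters and is no evidence of binding.

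**Figure D1:**
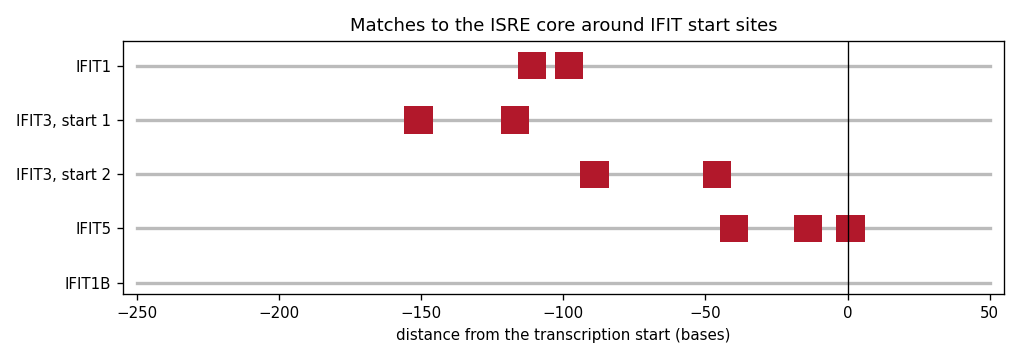
Positions of ISRE core matches (red blocks, to scale) in RefSeq promoter windows (grey lines), by distance from the transcription start in bases (vertical line at 0). IFIT1 and both IFIT3 windows hold 2 matches each, IFIT5 holds 3 nearest to the start, and IFIT1B holds none.

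Library totals lay between 13867494 and 17500031 counts. Levels are in CPM, counts per 1000000 counts of the library, and a single count equals 0.0571 to 0.0721 CPM. Intervals given here are exact 95% intervals for counting error alone. They do not cover the spread between cultures. OCLN, the targeted gene, stood at 21.0 CPM in siOCLN+LPS, 29.7 CPM for the library labelled wtOCLN+LPS, 50.4 CPM in LPS and 55.4 CPM in control. OCLN was thus 1.70 times lower (1.51 to 1.91) in the library labelled wtOCLN+LPS than it was in LPS, against what its label implies. The name in the label is kept for it here, and none of its values is read as an effect of raised occludin. The transfected libraries were further apart than counting noise allows (chi-square of 7.06 per degree of freedom over genes with 10 or more counts in the pair), so they were kept apart. They were still the closest pair. The value was 31.1 for LPS and control, and 59.6 to 102 for a transfected library with LPS or control. The epithelial keratin KRT8 was at 976 CPM in siOCLN+LPS, 919 CPM for the library labelled wtOCLN+LPS, 372 CPM in LPS and 442 CPM in control. KRT18 was at 535, 503, 254 and 334 CPM in that order of libraries. The epithelial adhesion gene EPCAM was low, at 1.26, 1.60, 2.67 and 2.01 CPM, and the basal keratin KRT5 was at 19.1, 19.9, 22.4 and 18.9 CPM in the same order.

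All 4 IFIT genes were highest in the library labelled wtOCLN+LPS, lower in siOCLN+LPS, and lowest in the LPS and control libraries. Together they held 201 CPM in siOCLN+LPS (194 to 208), 359 CPM for the library labelled wtOCLN+LPS (351 to 368), 74.7 CPM in LPS (70.2 to 79.4) and 68.3 CPM in control (64.3 to 72.5). In bulk RNA, a change in the number of cells that express a gene and a change in RNA per cell cannot be told apart.

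IFIT1 was at 47.1 CPM in siOCLN+LPS, 103 CPM for the library labelled wtOCLN+LPS, 8.44 CPM in LPS and 9.31 CPM in control. These values rest on 823, 1796, 117 and 148 counts in that order of libraries. The intervals of the LPS and control libraries overlapped, and those of the transfected libraries overlapped neither each other nor the rest. IFIT3, the partner of IFIT1, was at 72.2 CPM in siOCLN+LPS, 133 CPM for the library labelled wtOCLN+LPS, 23.9 CPM in LPS and 18.3 CPM in control. IFIT2 was at 21.1 CPM in siOCLN+LPS, 35.3 CPM for the library labelled wtOCLN+LPS, 8.15 CPM in LPS and 6.42 CPM in control. IFIT5 was at 60.4 CPM in siOCLN+LPS, 88.3 CPM for the library labelled wtOCLN+LPS, 34.2 CPM in LPS and 34.3 CPM in control. For IFIT2 and IFIT5 too, the intervals of LPS and control overlapped and those of the transfected libraries lay above them, apart from each other.

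**Figure D2:**
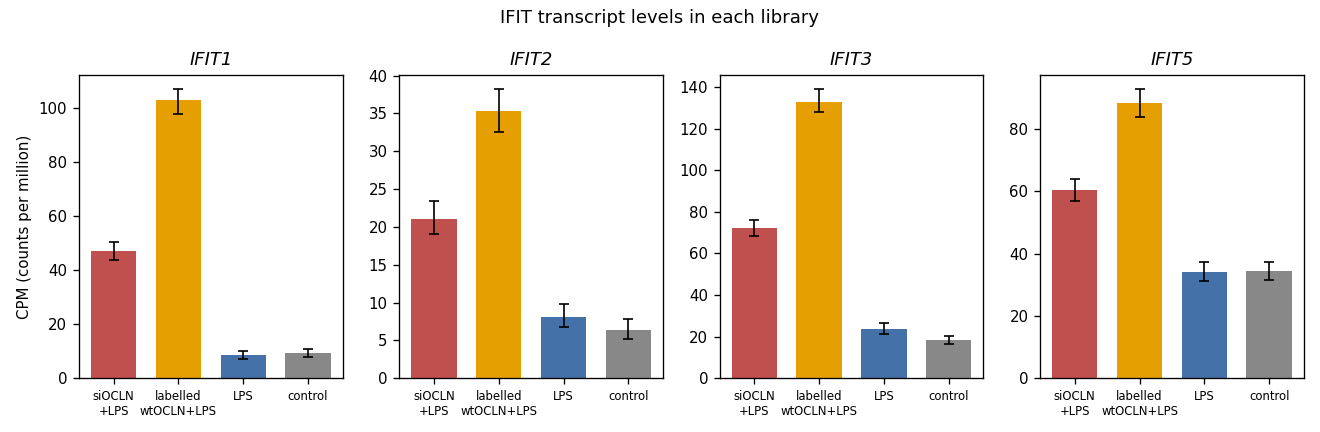
CPM of each IFIT gene in the 4 libraries (1 library per bar; bars start at 0, and error lines are exact 95% Poisson intervals, counting error only; each panel has its own scale). In every panel the library labelled wtOCLN+LPS is highest and siOCLN+LPS next, with IFIT1 at 47.1 CPM in siOCLN+LPS, 103 CPM for the library labelled wtOCLN+LPS, 8.44 CPM in LPS and 9.31 CPM in control.

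Levels of different genes were set side by side per kilobase, with the longest principal transcript of GENCODE 29 as the length (1.88 kb for IFIT1, 3.703 kb for IFIT2, 2.496 kb for IFIT3 and 4.015 kb for IFIT5). In siOCLN+LPS the order was IFIT3 at 28.9 CPM per kb, IFIT1 at 25.0, IFIT5 at 15.0 and IFIT2 at 5.70. In the library labelled wtOCLN+LPS, IFIT1 at 54.6 CPM per kb (52.1 to 57.2) and IFIT3 at 53.3 (51.2 to 55.6) lay within counting error of each other, ahead of IFIT5 at 22.0 and IFIT2 at 9.54. In LPS, IFIT3 at 9.59 CPM per kb (8.59 to 10.7) and IFIT5 at 8.51 (7.76 to 9.32) overlapped, followed by IFIT1 at 4.49 and IFIT2 at 2.20. In control, IFIT5 at 8.54 CPM per kb (7.84 to 9.29) and IFIT3 at 7.34 (6.52 to 8.23) overlapped, followed by IFIT1 at 4.95 and IFIT2 at 1.73. With these lengths IFIT2 was lowest per kilobase in each library, and IFIT1 moved up past IFIT5 in both transfected libraries. The place of IFIT1 depends on its transcript. With its longest annotated transcript of 4.613 kb it would be at 10.2 CPM per kb in siOCLN+LPS, 22.2 in the library labelled wtOCLN+LPS, 1.83 in LPS and 2.02 in control, which would put it below IFIT5 in siOCLN+LPS.

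The make-up of the family differed between libraries in the same way. IFIT1 gave 23.5% of all IFIT counts in siOCLN+LPS (22.1 to 24.9) and 28.6% in the library labelled wtOCLN+LPS (27.4 to 29.7), against 11.3% in LPS (9.43 to 13.4) and 13.6% in control (11.6 to 15.8). IFIT5 gave 30.1% in siOCLN+LPS and 24.6% for the library labelled wtOCLN+LPS, against 45.8% in LPS and 50.2% in control. The share of IFIT2 lay between 9.39% and 10.9% in all 4 libraries. IFIT3 gave 36.0% and 37.0% in siOCLN+LPS and the library labelled wtOCLN+LPS, 32.0% in LPS and 26.8% in control. IFIT5 was the most counted member in LPS and control, and IFIT3 in both transfected libraries. These shares do not depend on how the libraries are scaled.

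**Figure D3:**
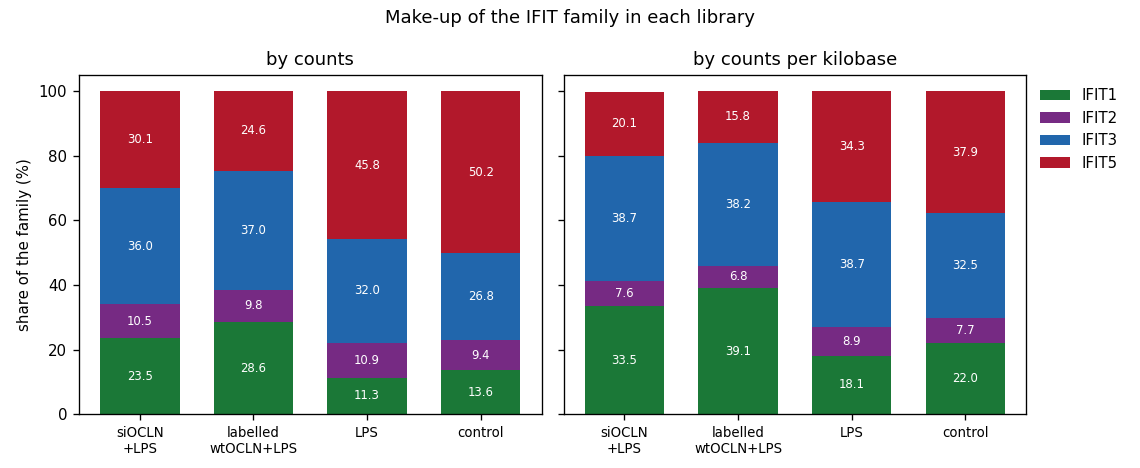
Share of each IFIT gene in the family total of each library, by counts (left) and by counts per kilobase of transcript (right), in percent; each bar is 1 library. By counts, IFIT5 takes 30.1% and 24.6% of the bar in siOCLN+LPS and the library labelled wtOCLN+LPS, against 45.8% in LPS and 50.2% in control, while IFIT1 has its larger shares in the transfected libraries.

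The siOCLN+LPS library against LPS sets occludin siRNA beside LPS alone, with the transfection itself not separated. IFIT1 was 5.58-fold higher in siOCLN+LPS (4.59 to 6.83), IFIT3 3.02-fold (2.67 to 3.41), IFIT2 2.59-fold (2.09 to 3.23) and IFIT5 1.77-fold higher (1.58 to 1.97). A gene was called when the log2 ratio of CPM + 1 was at least 1 or at most -1 (2-fold), for genes that reached 1 CPM in one of the libraries compared. By that rule 3 of 4 members were called higher, all but IFIT5 (log2 ratio 0.80), and the share of all tested genes called higher was 3.32% and called lower 3.92%. The members were chosen by name with this contrast known, so nothing is read from that gap. IFIT1 had rank 25 from the top among 13505 tested genes, IFIT3 rank 135, IFIT2 rank 242 and IFIT5 rank 699.

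In the library labelled wtOCLN+LPS against LPS the same order of members held with larger ratios. IFIT1 was 12.2-fold higher (10.1 to 14.8), IFIT3 5.56-fold (4.96 to 6.26), IFIT2 4.33-fold (3.54 to 5.34) and IFIT5 2.58-fold higher (2.33 to 2.87). All 4 members were called higher, beside 3.32% of the 13493 genes tested, of which 3.69% were called lower. IFIT1 had rank 16 from the top, IFIT3 rank 37, IFIT2 rank 74 and IFIT5 rank 225. Both of these comparisons use the single LPS library.

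The log2 ratio of all tested genes had a median of -0.13 for siOCLN+LPS and -0.15 for the library labelled wtOCLN+LPS, each against LPS. TMM scaling set both medians to 0.01 and gave IFIT1, IFIT2, IFIT3 and IFIT5 log2 ratios of 2.49, 1.41, 1.70 and 0.95 in siOCLN+LPS, and 3.62, 2.15, 2.59 and 1.51 in the library labelled wtOCLN+LPS. With library totals, 449 genes were higher and 530 lower in siOCLN+LPS than in LPS (45.9% higher), against 603 and 378 with TMM (61.5% higher). For the library labelled wtOCLN+LPS the numbers were 448 higher and 498 lower (47.4% higher), against 618 and 334 with TMM (64.9% higher). The same members were past 2-fold under either scaling.

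**Figure D4:**
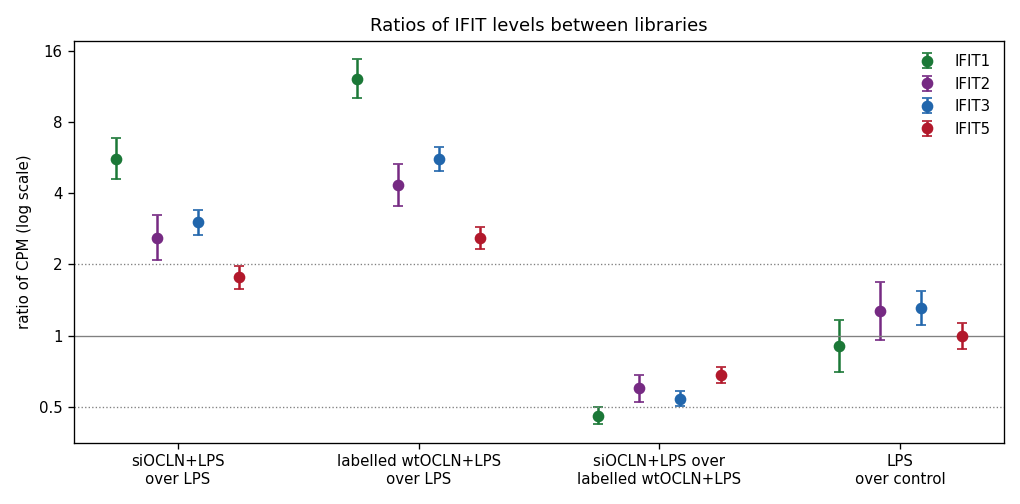
Ratio of CPM for each IFIT gene in the 4 comparisons (log axis; points are ratios of 2 libraries, error lines exact 95% counting intervals; solid line at 1, dotted lines at 2 and 0.5). IFIT1 lies farthest from 1 and IFIT5 nearest in the 3 comparisons that involve a transfected library, and all 4 genes lie near 1 in LPS over control.

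Whether the members differed from each other was read from the ratio of their ratios, in which library scaling cancels. The ratio for IFIT1 exceeded that for IFIT5 by 3.16 times in siOCLN+LPS against LPS (2.52 to 3.98) and by 4.71 times in the library labelled wtOCLN+LPS against LPS (3.79 to 5.88). Against IFIT3, IFIT1 was ahead by 1.85 times in siOCLN+LPS (1.47 to 2.35) and by 2.19 times in the library labelled wtOCLN+LPS (1.75 to 2.75). IFIT2 and IFIT3 were the closest pair, with a ratio of 0.859 in siOCLN+LPS (0.670 to 1.11) and 0.779 in the library labelled wtOCLN+LPS (0.616 to 0.991). Of the 6 pairs, 5 had an interval that left out 1 in siOCLN+LPS against LPS, and 6 did in the library labelled wtOCLN+LPS against LPS. These intervals hold for the libraries, since the spread between cultures is unknown.

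Set directly against each other, the transfected libraries had all 4 members lower in siOCLN+LPS. IFIT1 was 2.18 times lower in siOCLN+LPS (2.01 to 2.37), IFIT3 1.84 times (1.72 to 1.98), IFIT2 1.67 times (1.47 to 1.91) and IFIT5 1.46 times lower (1.35 to 1.58). IFIT1 alone was called lower, 1 of 4 members, beside 0.290% of 13109 genes tested that were called lower and 0.0763% called higher. Counted from the lowest ratio, IFIT1 had rank 29, IFIT3 rank 50, IFIT2 rank 88 and IFIT5 rank 194. Within each library, 0.780 IFIT1 counts were found per IFIT5 count in siOCLN+LPS and 1.16 for the library labelled wtOCLN+LPS. The interval of the pairwise ratio left out 1 for 4 of 6 pairs, the exceptions being IFIT2 with IFIT3 and IFIT2 with IFIT5. The kind of transfection, by siRNA or with wild-type occludin, differs between these libraries and cannot be told apart from an effect of occludin.

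With control in place of LPS, a comparison added after the values were seen, IFIT1 was 5.06-fold higher in siOCLN+LPS (4.24 to 6.06) and 11-fold higher for the library labelled wtOCLN+LPS (9.31 to 13.1). IFIT3 was 3.94-fold (3.47 to 4.49) and 7.27-fold higher (6.43 to 8.24) for these libraries, and IFIT2 3.29-fold (2.63 to 4.14) and 5.50-fold higher (4.46 to 6.85). IFIT5 was 1.76-fold (1.59 to 1.96) and 2.57-fold higher (2.33 to 2.84). For siOCLN+LPS 3 of 4 members were called higher, beside 3.94% of tested genes called higher and 5.44% lower. For the library labelled wtOCLN+LPS 4 of 4 were, beside 3.91% called higher and 4.91% lower. Both comparisons share the control library.

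LPS against control asks what 2 h of LPS did in cells with no transfection label. IFIT3 was 1.31-fold higher in LPS (1.11 to 1.54) and IFIT2 1.27-fold (0.963 to 1.68). The ratio was 0.906 for IFIT1 (0.705 to 1.16) and 0.997 for IFIT5 (0.879 to 1.13). The interval of IFIT3 is the only one of the 4 that leaves out 1. No member was called, beside 1.60% of 13551 genes called higher and 0.207% called lower. Scaled by library totals, IFIT5 had a log2 ratio of -0.00 and IFIT1 of -0.13, and TMM turned these into 0.09 and -0.04, so the direction for IFIT5 depends on scaling. Over the same libraries all 10 genes of an NF-kB early response list were called higher (median log2 ratio 4.36, from 2.41 to 6.02), against a median of -0.09 over all tested genes. The NF-kB inhibitor gene TNFAIP3 had a log2 ratio of 4.31 there. In siOCLN+LPS against the library labelled wtOCLN+LPS the same list had 0 genes called and a median of -0.03, where the IFIT members had a median of -0.79. Of all tested genes only 0.0763% were called higher and 0.290% lower there, and their median was 0.02.

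Ligands upstream of the family were near or at 0 counts. Of 16 interferon ligand genes, IFNE, an epithelial type I interferon, was the only one to reach 1 CPM. IFNE had 94 counts in siOCLN+LPS, 55 in the library labelled wtOCLN+LPS, 105 in LPS and 127 in control. It was 2.41 times lower in the library labelled wtOCLN+LPS than it was in LPS (1.72 to 3.40), which is the opposite side from the IFIT genes. The type III interferon gene IFNL1 had 7 counts in the library labelled wtOCLN+LPS and 0 in each of the others, and IFNL2 had 2 and 0 in the same way. IFNL2 has a near-identical copy and is uncertain. IFNB1, the first type I interferon made by epithelial cells, had 1 count in the library labelled wtOCLN+LPS and 0 elsewhere, as did IFNA8. IFNA1, which shares reads with a near-identical copy, had 0 counts in both transfected libraries, 3 in LPS and 5 in control. IFNK had 1 count in each library given LPS and 0 in control, and IFNA2 and IFNW1 had 1 count each, in LPS. Where a ligand had 0 counts, a limit of 3 counts allows a level of up to 0.171 to 0.216 CPM, depending on the library.

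Signal receivers and transcription factors differed from each other. None of 9 interferon receptor and kinase genes was called in either comparison with LPS or between the transfected libraries. Against LPS, their log2 ratios ran from -0.52 to 0.60 in siOCLN+LPS (median 0.02). For the library labelled wtOCLN+LPS they ran from -0.50 to 0.59 (median -0.05). Of all tested genes, 3.32% were called higher and 3.92% lower in siOCLN+LPS against LPS. The shares were 3.32% and 3.69% for the library labelled wtOCLN+LPS against LPS, and 0.0763% and 0.290% between the transfected libraries. At such shares, a list of 9 genes with none called is not set apart. In LPS against control 1 of the 9 was called, the interferon gamma receptor gene IFNGR2, at a log2 ratio of 1.05. With control in place of LPS, 2 of the 9 were called higher in siOCLN+LPS, beside 3.94% of tested genes. For the library labelled wtOCLN+LPS 1 was, beside 3.91%. Of 8 STAT and IRF genes, 1 was called higher in siOCLN+LPS against LPS. For the library labelled wtOCLN+LPS, IRF1, IRF7 and IRF9 were among those called higher against LPS. IRF9, the DNA-binding subunit of the factor that reads the ISRE, was at 47.3 CPM in siOCLN+LPS, 80.5 CPM for the library labelled wtOCLN+LPS, 24.3 CPM in LPS and 29.3 CPM in control. STAT2, which IRF9 binds, stayed within 2-fold with 85.3, 121, 82.4 and 93.5 CPM in that order of libraries. IRF7, a factor that is itself interferon-induced, was 2.27 times lower in siOCLN+LPS than in the library labelled wtOCLN+LPS (2.07 to 2.49), the only gene of this list called there. IRF1 behaved otherwise, with 1036 CPM in siOCLN+LPS, 1009 CPM for the library labelled wtOCLN+LPS, 463 CPM in LPS and 89.1 CPM in control. It is the 1 gene of the list called in siOCLN+LPS against LPS and was named after its values were seen.

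Of 13 RNA and DNA sensing genes, none was called in siOCLN+LPS against LPS and 2 were called higher in the library labelled wtOCLN+LPS against LPS. These were the RNA helicase sensors IFIH1 (log2 ratio 1.64) and DDX58, also known as RIG-I (1.18). Of all tested genes, 3.32% were called higher and 3.92% lower in siOCLN+LPS against LPS. For the library labelled wtOCLN+LPS against LPS the shares were 3.32% and 3.69%. They were 0.0763% and 0.290% between the transfected libraries and 1.60% and 0.207% in LPS against control. At such shares, short lists with none called, here and below, are not set apart. In siOCLN+LPS against the library labelled wtOCLN+LPS none was called, with IFIH1 lowest at -0.87 and the list median at -0.27. Among 6 tested genes of negative feedback, 2 were called lower in siOCLN+LPS than in the library labelled wtOCLN+LPS. These were ISG15 and USP18, which restrain interferon signalling, at log2 ratios of -1.44 and -1.30. Both were nevertheless higher in each transfected library than in LPS. ISG15 was at 125 CPM in siOCLN+LPS, 343 CPM for the library labelled wtOCLN+LPS, 15.3 CPM in LPS and 17.6 CPM in control. USP18 was at 15.4, 39.4, 9.16 and 10.4 CPM in that order of libraries. Of the 6, ISG15 alone was called higher in siOCLN+LPS against LPS. For the library labelled wtOCLN+LPS, ISG15 and USP18 were. Among binding partners of IFIT proteins, such as subunits of the translation factor eIF3, 13 of 15 genes were tested. None of the 13 was called in siOCLN+LPS against LPS, in LPS against control or between the transfected libraries. For the library labelled wtOCLN+LPS, 1 of the 13 was called higher against LPS and 1 against control. The shares of all tested genes called higher in these comparisons were 3.32% and 3.91%. None of 6 genes for the formation and methylation of the messenger RNA cap was called in the comparisons with LPS, between the transfected libraries or in LPS against control, and their log2 ratios there ran from -0.89 to 0.25. Against control 1 of the 6 was called lower, beside 5.44% of tested genes in siOCLN+LPS and 4.91% for the library labelled wtOCLN+LPS. It was the cap methyltransferase gene CMTR2, with log2 ratios of -1.14 in siOCLN+LPS and -1.22 for the library labelled wtOCLN+LPS. CMTR2 was at 19.7 CPM in siOCLN+LPS, 18.6 CPM for the library labelled wtOCLN+LPS, 35.5 CPM in LPS and 44.7 CPM in control.

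Other interferon-stimulated effector genes, a list of 40, gave the setting for the IFIT values. They had 25 of 39 tested genes called higher and 0 lower in siOCLN+LPS against LPS (median 1.31, against 1.41 for the IFIT members and -0.13 for all tested genes). In the library labelled wtOCLN+LPS against LPS, 33 of 40 were higher and 0 lower (median 2.25, against 2.21 for the IFIT members). In siOCLN+LPS against the library labelled wtOCLN+LPS, 18 of 40 were lower and 0 higher (median -0.94, against -0.79 for the IFIT members). In LPS against control, 1 of 36 was higher (median -0.08), beside 1.60% of all tested genes. That count of 1 is not set apart. The shares of all tested genes called higher and lower were 3.32% and 3.92% in siOCLN+LPS against LPS. For the library labelled wtOCLN+LPS against LPS they were 3.32% and 3.69%. In siOCLN+LPS against the library labelled wtOCLN+LPS they were 0.0763% and 0.290%. IFIT1 lay in the upper part of this list, with 8 effector genes above it and 31 below in siOCLN+LPS against LPS, and 10 above and 30 below in the library labelled wtOCLN+LPS against LPS. IFIT5 lay in the lower part, with 25 above and 14 below in the first of these comparisons and 29 above and 11 below in the second. The antiviral genes MX2 and RSAD2 had log2 ratios of -2.44 and -2.26 in siOCLN+LPS against the library labelled wtOCLN+LPS, beyond the -1.11 of IFIT1. Of the 35 effector genes found in the promoter table, 26 held an ISRE core, against 4.38% of the 27305 genes there. This list and the others were drawn up with earlier results of these data known.

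**Figure D5:**
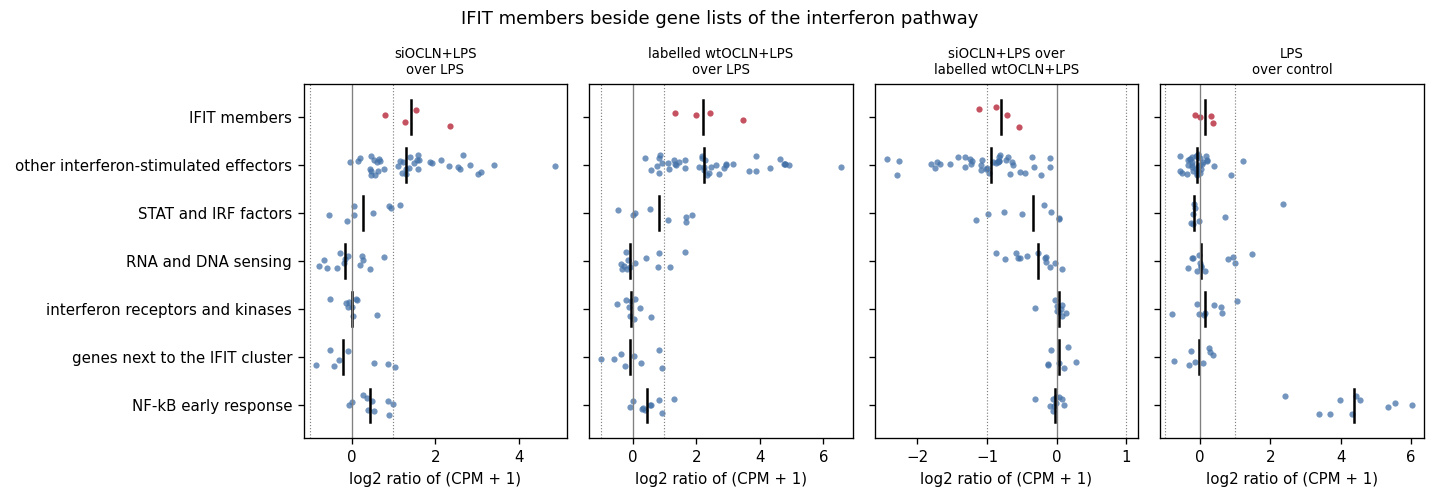
Log2 ratios of CPM + 1 for the IFIT members (red) and for genes of 6 lists (blue) in the 4 comparisons; each point is 1 gene at 1 CPM or more in either library, black bars are list medians, and dotted lines mark 2-fold. The IFIT members lie within the range of the other interferon-stimulated effectors in each panel, and the NF-kB list stands far to the right only in LPS over control.

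Genes with the pattern most like the family were sought by the root mean square difference between centred log2(CPM + 1) values over the 4 libraries and the mean centred profile of the members. OAS3, an RNA-activated synthetase, was nearest among the genes at 5 CPM or more in a library, with a difference of 0.0662. It was at 360 CPM in siOCLN+LPS, 643 CPM for the library labelled wtOCLN+LPS, 121 CPM in LPS and 105 CPM in control. After it came IFITM3, a membrane protein that blocks virus entry (0.112), the antiviral TRIM22 (0.147) and SAMHD1, a nucleotide hydrolase (0.155). DDX60L, DDX60, IFI35, TNFSF10, CLDN11 and BST2 followed, at 0.174 to 0.190. TNFSF10 encodes the death ligand TRAIL, and CLDN11 is a claudin, a protein family of tight junctions. CLDN11 was at 51.8 CPM in siOCLN+LPS, 66.6 CPM for the library labelled wtOCLN+LPS, 16.9 CPM in LPS and 15.7 CPM in control. Of the members, IFIT2 and IFIT3 lay 0.115 and 0.135 from the family mean, and IFIT1 and IFIT5 lay 0.458 and 0.461 from it on opposite sides. With 4 libraries this measure describes size and shape of the pattern and says nothing of shared control.

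Most tested neighbours of the cluster on chromosome 10 stayed within 2-fold, as did most of all tested genes. In the RefSeq order the cluster runs LIPA, IFIT2, IFIT3, IFIT1B, IFIT1, IFIT5 and SLC16A12. LIPA, which encodes lysosomal acid lipase, was at 56.2 CPM in siOCLN+LPS, 54.9 CPM for the library labelled wtOCLN+LPS, 30.4 CPM in LPS and 33.7 CPM in control. Its ratio to LPS was 1.85 in siOCLN+LPS (1.65 to 2.08) and 1.81 for the library labelled wtOCLN+LPS (1.61 to 2.03). The transfected libraries lay within counting error of each other (1.03, 0.937 to 1.12). SLC16A12, on the other side, had 14, 10, 9 and 8 counts in siOCLN+LPS, the library labelled wtOCLN+LPS, LPS and control. Of 12 genes around the cluster 8 were tested in the comparisons with LPS. The 1 called was the smooth muscle actin gene ACTA2, 2.29-fold higher in siOCLN+LPS (1.71 to 3.10). In the library labelled wtOCLN+LPS it was 2.10-fold higher than in LPS (1.56 to 2.85), not called at a log2 ratio of 0.93. Of all tested genes, 3.32% were called higher and 3.92% lower in siOCLN+LPS against LPS. For the library labelled wtOCLN+LPS against LPS the shares were 3.32% and 3.69%. Between the transfected libraries 7 were tested and none was called, with log2 ratios from -0.13 to 0.28. Of all tested genes only 0.0763% were called higher and 0.290% lower in that comparison. The log2 ratios of PANK1, CH25H, STAMBPL1 and KIF20B there were 0.28, 0.17, -0.13 and -0.13. FAS, a death receptor gene, was at 45.1, 47.8, 56.1 and 42.9 CPM in siOCLN+LPS, the library labelled wtOCLN+LPS, LPS and control. ANKRD22 (5, 11, 0 and 2 counts), LINC00865 (0, 3, 2 and 1) and HTR7 (6, 4, 20 and 17) were rarely counted in that order of libraries.

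How far IFIT counts could be shared with other genes was read from GENCODE 29, whose build differs from the hg19 of the submitters' notes. Of all 50-base stretches in annotated transcripts, 1.02% of those of IFIT1 occurred in transcripts of another gene, mostly IFIT1B, and 3.64% of those of IFIT3. None of the IFIT5 stretches did, and 7.91% of those of IFIT2 did, mostly in an overlapping long non-coding RNA gene on the same strand. The annotated span of LIPA covers IFIT1, IFIT2, IFIT3 and IFIT1B on the opposite strand, but its exons share only 65 bases with those of IFIT2 and none with the others. The library kit keeps strand, and the strand setting of the counting is not given in the sources used here, so reads of LIPA and the IFIT genes may not be fully separated.

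Markers of other cell types were set beside these results. The 7 airway epithelial markers summed to 1674 CPM in siOCLN+LPS and 1587 CPM for the library labelled wtOCLN+LPS, against 700 CPM in LPS and 850 CPM in control. Of these 7, 5 were called higher in siOCLN+LPS and 4 for the library labelled wtOCLN+LPS, each against LPS, where the IFIT genes were higher too. The share of all tested genes called higher was 3.32% in either comparison. The sums are mostly KRT8 and KRT18. EPCAM and KRT5 had lower values in both transfected libraries than in LPS and were not called, with log2 ratios of -0.70 and -0.22 in siOCLN+LPS and of -0.50 and -0.17 for the library labelled wtOCLN+LPS. Between the transfected libraries 0 of 7 were called, with a median log2 ratio of 0.01. Only 0.0763% of all tested genes were called higher and 0.290% lower there, so 0 of 7 is not set apart. The 7 leukocyte markers summed to 5.09, 7.71, 17.4 and 17.4 CPM in siOCLN+LPS, the library labelled wtOCLN+LPS, LPS and control, nearly all of it CD68. CD3E, MS4A1 and HLA-DRA were at 0 counts in all 4 libraries, and PTPRC was at 0 except for 3 counts in control. The 7 markers of plasmacytoid dendritic cells, a main source of interferon in blood, summed to 11.8, 9.89, 7.14 and 8.94 CPM in the same order, mostly TCF4. IL3RA, TLR7 and GZMB were at 0 counts in all 4 libraries. The 7 fibroblast markers summed to 106, 111, 76.7 and 70.4 CPM and the 6 endothelial markers to 1.72, 1.94, 2.45 and 2.08 CPM in that order. The part of these marker levels in the IFIT values was not tested.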

How the data were processed

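The 4 libraries, 1 per group, were made from 1.3 µg of BEAS-2B total RNA each, and the labels' protocols name a kit that keeps strand. The deposited values were whole-number counts per gene symbol. The submitters' processing notes list TopHat, Cufflinks and the build hg19 and say nothing of their order. Not given in the sources used here are the counter, its strand setting and its gene models. No molecular identifiers are mentioned. Computed here were CPM by library total, exact Poisson intervals, ratios of CPM without pseudocount with exact (Clopper-Pearson) intervals, and conditional odds ratios between members. Calls used log2(CPM + 1), which understates changes of low genes, a filter at 1 CPM and a 2-fold threshold. No replicate test could be fitted with 1 library per group. One gene of the lists is not reported here by name. Members and lists were chosen with earlier results of these data known. Genes to name were taken from the members, IFIT1B, the 10 genes nearest in pattern, up to 4 genes per list with the largest absolute log2 ratio between the transfected libraries, and ligands and neighbours with counts. Other settings tried were TMM and median ratio scaling, pseudocounts of 0.1 and 5, other filters and thresholds, and, added after seeing the data, control in place of LPS. The calling step was tested on simulated data. Python 3.11.15, SciPy 1.17.1, pandas 2.3.3, R 4.3.3 and edgeR 4.0.16 (TMM factors only) were used.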

Additional observations from a re-analysis of the deposited data

How the results depend on the processing

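The number of members past 2-fold was 0 in LPS against control, 3 in siOCLN+LPS against LPS, 4 in the library labelled wtOCLN+LPS against LPS and 1 between the transfected libraries, and it was the same with TMM and median ratio scaling, with a pseudocount of 0.1, with no filter or a filter at CPM 5, and with control in place of LPS. With a pseudocount of 5, 2 members were past 2-fold in siOCLN+LPS against LPS. At 3-fold the number was 1 in siOCLN+LPS against LPS, 3 in the library labelled wtOCLN+LPS against LPS and 0 between the transfected libraries, and at 1.5-fold it was 4 in siOCLN+LPS against LPS and 3 between the transfected libraries. Of 32 member ratios under another scaling, 30 stayed within their counting interval, 2 moved outside it (IFIT5 in the library labelled wtOCLN+LPS against LPS, at a log2 ratio of 1.51 with TMM), and 0 turned direction among those called. Numbers of all genes called depended on the settings. With a pseudocount of 5, 226 genes were higher in siOCLN+LPS, 254 in the library labelled wtOCLN+LPS and 135 in LPS against control, and 21 were lower between the transfected libraries. The 1.5-fold threshold gave 1227, 1159, 467 and 156, and the 3-fold threshold 123, 144, 91 and 8. With a pseudocount of 0.1, 82 were lower between the transfected libraries. No paired analysis was possible because each group has 1 library. Depth limits what can be said of the interferon ligands, most of which had few or 0 counts, and the spread between cultures is unknown for every value.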
